A study of Homo sapiens with 12 samples.

Results

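The genes described here encode the factors that start and elongate protein chains on the ribosome. They were chosen by symbol alone, as every listed gene whose symbol starts with EIF and a digit from 1 to 6 or with EEF and a digit, leaving out the EIF2AK kinases. This rule gave 64 of the 15414 genes with reads in either kind of library: all 64 were listed among the 15381 genes of the cell libraries and 58 among the 11973 genes of the exosome libraries. RNA came from AC16, an established human cell line made by fusing ventricular cardiomyocytes with transformed fibroblasts, and from the exosomes, small vesicles secreted by cells, isolated from the same line. The 12 libraries form 4 groups of 3, since both whole cells and exosomes carry the label Con or Ang. The series deals with RNA of hypertrophic cardiomyocytes and their exosomes, but no label explains these 2 words or gives an agent, dose or time. Nothing in the labels says that the 3 libraries of a group were separate cultures, so p-values measure the spread between libraries, which may be technical.

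Translation starts when eIF2, loaded with the initiator tRNA, joins the small ribosomal subunit together with eIF1, eIF1A, eIF3 and eIF5, while the eIF4 proteins bind the cap of the mRNA and unwind it. After the large subunit joins, with the help of eIF5B, eEF1A brings each aminoacyl-tRNA, the eEF1B subunits recharge eEF1A with GTP, and eEF2 moves the ribosome along. In heart muscle, growth of the cell goes with a higher rate of protein synthesis, and the binding of eIF4E by its 4E-BP inhibitors and the phosphorylation of eIF2 and eEF2 are well known points of control.

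Many elongation factor mRNAs begin with a terminal oligopyrimidine tract, a C followed by a run of C or T at the very 5′ end, through which the mTORC1 kinase controls their translation. The sequences below, from RefSeq (GRCh38.p14), show the stretch from 10 bases before the annotated start to the first 20 bases of the gene. They are given on the strand that reads like the mRNA, so that the start can be read beside the values that follow. Capitals mark a C followed by 4 or more pyrimidines that begins at the start base or within the next 5 bases. The first 5 genes have the tract, and the last 3 do not.
EEF1A1 (chr6:73521013-73521042, minus strand): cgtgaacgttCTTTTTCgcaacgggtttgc
EEF2 (chr19:3985444-3985473, minus strand): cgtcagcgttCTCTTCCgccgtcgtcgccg
EIF3F (chr11:7987327-7987356, plus strand): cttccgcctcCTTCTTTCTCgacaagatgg
EIF4A2 (chr3:186783567-186783596, plus strand): gcgccgctgtCTTTTCagtcgggcgctgag
EIF4B (chr12:53006446-53006475, plus strand): tcatccgggtCTTTTgcgttctctttccct
EIF3B (chr7:2354817-2354846, plus strand): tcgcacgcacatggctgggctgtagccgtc
EIF4A1 (chr17:7572815-7572844, plus strand): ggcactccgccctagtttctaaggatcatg
EIF4G1 (chr3:184314596-184314625, plus strand): gcggggagccggaaatggttgtggactacg

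The cell libraries held 9202471 to 11212674 gene reads, the Con exosome libraries 717263 to 745311 and the Ang exosome libraries 535442 to 587783. The biological coefficient of variation was 0.227 over the 6 cell libraries and 0.423 over the 6 exosome libraries. It was 0.319 over both kinds together, in the fit used for exosomes against cells and for the interaction. Whole cells and exosomes were made into libraries with different kits, so compartment and kit cannot be told apart. Of 15 cardiomyocyte marker genes, 10 were listed in cells, at a summed 112 to 131 CPM (reads scaled to library size), and TNNC1, MYH6, TBX5, MYL2 and MYL7 were not listed. All 10 fibroblast markers were listed, at 6070 to 7470 CPM in cells, and 2 of 7 blood and serum markers, at 0.0984 to 0.535 CPM. The 8 exosome markers were at 1330 to 1420 CPM in cells and at 894 to 1040 CPM in exosomes. In exosomes, 3 of 7 blood and serum markers were listed, at 0 to 38.9 CPM in Con and 0 in every Ang library, and the part of other cell types in the results was not tested.

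Per length, the elongation factors led the translation factors in cells. EEF1A1, the GTPase that delivers aminoacyl-tRNA, stood at 786 ± 35.1 RPKM (reads per length of exon and library size, mean ± SD, n = 6), and EEF2 followed at 447 ± 41.3 RPKM, with separate ranges. EEF1G, a structural subunit of the eEF1B exchange complex, stood at 360 ± 130 RPKM and EEF1B2, a catalytic exchange subunit, at 208 ± 6.06 RPKM, with ranges that overlapped. The first initiation factor in the order was EIF3A at 140 ± 35.7 RPKM, whose range overlapped that of EIF4B, the helper of the cap helicase, at 127 RPKM. The cap-binding protein gene EIF4E stood near the end of the order, at 2.95 ± 0.132 RPKM, a level lowered by an annotated exon length of 14067 bases, the union of all its transcripts. Its inhibitor EIF4EBP1 was at 66.8 ± 4.54 RPKM in cells.

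In exosomes the order began differently. EEF2 came first at 915 ± 24.5 RPKM, with no overlap with EEF1A1 at 747 ± 21.4 RPKM, and EEF1G at 676 ± 34 RPKM overlapped EEF1A1. The place of EEF2 before EEF1A1 depends on the lengths used, the union of all transcripts, 4027 bases for EEF2 and 5948 for EEF1A1. Before division by length every exosome library held more EEF1A1 (4593 to 4925 CPM) than EEF2 (3836 to 4094 CPM). EIF3A stood next at 558 ± 36.6 RPKM, apart from EEF1G above it and from EEF1B2 at 274 RPKM below it. EIF4EBP1 was at 153 ± 34.5 RPKM. These are levels per length within each compartment, and nearly all exons of EEF1G (99.9% of their bases) are shared on the same strand with an annotated read-through gene, so its level depends on how the authors assigned shared reads.

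**Figure D1:**
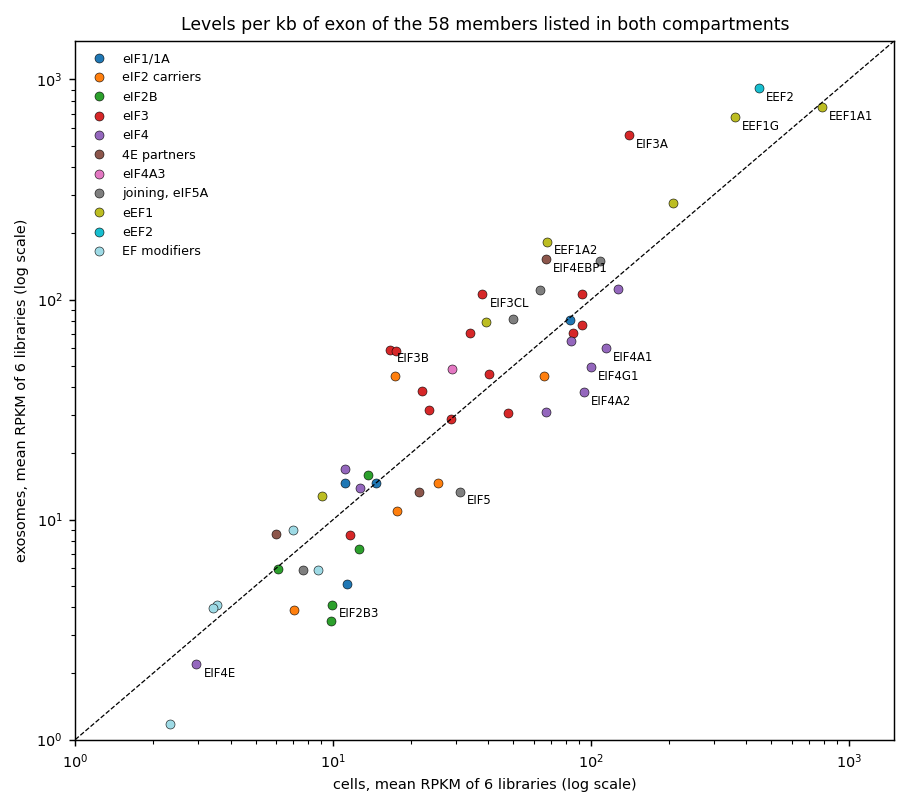
Mean RPKM of 6 cell libraries (x axis, log scale) against mean RPKM of 6 exosome libraries (y axis, log scale) for the 58 translation factor genes listed in both compartments, coloured by role, with a dashed line of equal level. EEF2 (447 and 915), EIF3A (140 and 558) and EIF4EBP1 (66.8 and 153) lie above the line, and EIF4A1 (114 and 59.9) and EIF4G1 (99.7 and 49.3) lie below it.

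The 6 members listed only in cells were low there. EIF4E3, a cap-binding paralog, had 11 to 35 reads per cell library, EEF1AKMT4, a lysine methyltransferase of eEF1A, had 12 to 29, and the read-through EEF1E1-BLOC1S5 had 0 to 16. EIF4EBP3 (3 to 7 reads), EIF5AL1 (4 to 8) and EIF2S3B (2 to 7) completed the group, and EIF5AL1 and EIF2S3B are near copies of EIF5A and EIF2S3 whose reads the counting could have split.

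Exosome libraries were compared with cell libraries over the 11811 genes that could be tested, which included all 58 members listed in both. Among these members 23 were higher in exosomes (39.7%, against 17.6% of all genes tested), 9 were lower (15.5%, against 19.5%) and 26 did not pass an adjusted p of 0.05. In both directions together 32 members passed (55.2%, against 37.1% of all genes; edgeR's quasi-likelihood test with Benjamini-Hochberg adjustment over all genes tested). The median log2 difference of the members was 0.201, against -0.145 for all genes. Members were also more abundant than genes in general, with a median of 112 CPM in cells against 34.6 for all genes tested. In 19 members every exosome library lay above every cell library (10.1% of all genes did so), and in 5 every one lay below (13.1% of all genes).

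The counts depended on the scaling. With raw library totals in place of trimmed-mean (TMM) scaling, the median of all genes moved from -0.145 to -0.359, and the share of higher genes among all calls fell from 47.5% to 31.8%. Of the 58 members 19 were then higher and 15 lower, with a member median of -0.0122, against 1546 higher and 3318 lower of all 11811 genes. Differences are therefore best read relative to all genes. By role and with TMM scaling, 5 of 6 eEF1 genes and 9 of 14 eIF3 genes were higher in exosomes, whereas 4 of 9 eIF4 genes were lower. With raw library totals 4 eEF1 genes and 7 eIF3 genes were higher, and 2 eIF3 genes and 5 eIF4 genes were lower. In bulk RNA, fewer vesicles or cells with a transcript and less of it in each cannot be told apart. Taking the contrast in the Con groups of the same fit, 26 members passed (20.4% of all genes did), 22 of them higher and 4 lower (11.2% and 9.26% of all genes), and in the Ang groups 23 passed (21.8% of all genes did), 17 higher and 6 lower (11% and 10.7% of all genes).

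**Figure D2:**
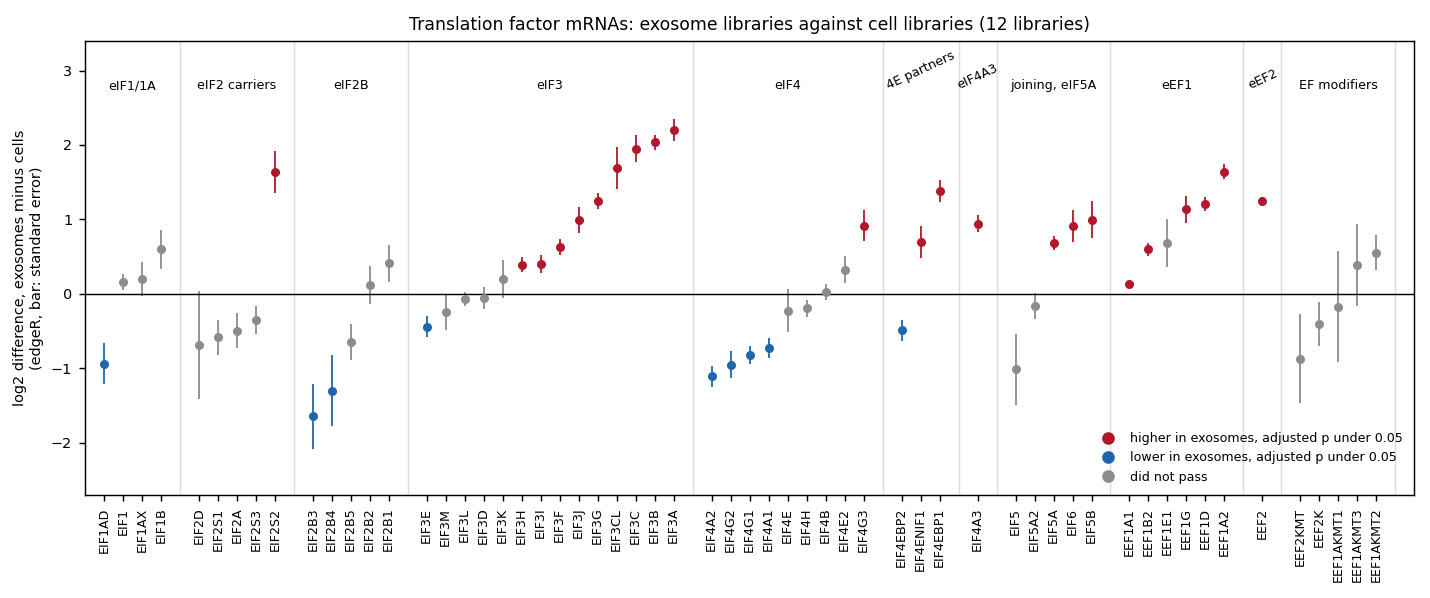
Log2 difference between exosome and cell libraries (y axis, edgeR, bars are standard errors) for each of the 58 translation factor genes, grouped by role along the x axis, with red for genes higher in exosomes, blue for lower and grey for those that did not pass. EIF3A is the highest at 2.20, EIF2B3 the lowest at -1.64, and 5 of 6 eEF1 genes are red.

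Among the elongation factors, 5 of 6 eEF1 genes and EEF2 were higher in exosomes. EEF1A1 (ENSG00000156508, GRCh38 chromosome 6, 73515750 to 73523797) stood at 4370, 4074 and 4176 CPM in Con cells and 4590, 4456 and 4545 in Ang cells, and at 4925, 4593 and 4709 CPM in Con exosomes and 4812, 4881 and 4803 in Ang exosomes. All exosome libraries lay above all cell libraries, but by little, with log2 0.13 (SE 0.0388, adjusted p = 0.0175, edgeR). With raw library totals the sign turned (log2 -0.08, adjusted p = 0.113), so no direction can be given for EEF1A1 apart from the scaling. EEF2 (ENSG00000167658, chromosome 19, 3976056 to 3985469) stood at 1486, 1587 and 1723 CPM in Con cells and 1596, 1778 and 1918 in Ang cells. In exosomes it stood at 3978, 3859 and 4044 CPM in Con and 4094, 4016 and 3836 in Ang. The compartments did not overlap, and EEF2 was 2.36-fold higher in exosomes (log2 1.24, SE 0.0586, adjusted p = 1.25e-08, edgeR).

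EEF1A2 (ENSG00000101210, chromosome 20, 63488012 to 63499322), the paralog of EEF1A1 that is known from muscle and neurons, was at 322, 290 and 321 CPM in Con cells and 314, 322 and 291 in Ang cells. It was at 957, 909 and 1015 CPM in Con exosomes and 1178, 775 and 971 in Ang exosomes, so that the lowest exosome library exceeded every cell library. The difference was 3.12-fold (log2 1.64, SE 0.102, adjusted p = 1.4e-07, edgeR). Of the exchange factor subunits, EEF1D rose by log2 1.21 (SE 0.0913, adjusted p = 8.75e-07), EEF1G by 1.14 (SE 0.183, adjusted p = 0.000497) and EEF1B2 by 0.60 (SE 0.0836, adjusted p = 0.000153). EEF1G ranged from 480 to 1354 CPM across cell libraries but only from 1836 to 2079 across exosome libraries. EEF1D lies opposite another gene over 34% of its exon bases, and the sources used here do not say whether counting used the strand. The remaining eEF1 gene, EEF1E1, which encodes a scaffold protein of the aminoacyl-tRNA synthetase complex, did not pass (log2 0.68, adjusted p = 0.109).

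The genes for the kinase and methyltransferases that modify elongation factors showed no call in 5 tested. EEF2K, whose kinase phosphorylates and inactivates eEF2, was at 33.7 to 82.2 CPM in cells and 30 to 91.9 CPM in exosomes (log2 -0.40, SE 0.297, adjusted p = 0.312). The 4 methyltransferase genes ranged from log2 -0.87 to 0.56, and EEF2KMT, EEF1AKMT1 and EEF1AKMT3 had 0 reads in at least 1 exosome library. At these depths 0 reads allow up to 4.03 to 5.6 CPM in an exosome library (3 reads, counting error only).

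The 14 genes of eIF3, the large scaffold that holds the initiation machinery on the small subunit, ran from log2 -0.44 to 2.20: 9 were higher in exosomes, 1 was lower and 4 did not pass. EIF3A (ENSG00000107581, chromosome 10, 119033670 to 119080823), the backbone subunit, was at 668, 1137 and 1149 CPM in Con cells and 724, 762 and 1151 in Ang cells. In exosomes it was at 3979, 4438 and 4125 CPM in Con and 3962, 4628 and 4501 in Ang. The compartments lay far apart, and the difference was 4.59-fold (log2 2.20, SE 0.15, adjusted p = 4.52e-07, edgeR). EIF3B (ENSG00000106263, chromosome 7, 2354086 to 2380745), the core subunit that carries an RNA recognition motif, was at 126, 136 and 147 CPM in Con cells and 149, 155 and 124 in Ang cells. It was at 630, 523 and 602 CPM in Con exosomes and 520, 579 and 585 in Ang exosomes, 4.11-fold higher with no overlap (log2 2.04, SE 0.103, adjusted p = 2.19e-08, edgeR).

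EIF3C and EIF3CL are near-identical neighbours on chromosome 16 (28688558 to 28735730 and 28379579 to 28403879), so the split of reads between them is uncertain. Counted together they were at 304, 197 and 252 CPM in Con cells and 247, 152 and 189 in Ang cells. Together they were at 875, 824 and 869 CPM in Con exosomes and 885, 779 and 523 in Ang exosomes, and the means differed 3.55-fold. Taken singly, EIF3C was higher by log2 1.95 (SE 0.183, adjusted p = 5.81e-06) and EIF3CL by 1.69 (SE 0.285, adjusted p = 0.00061). Singly, EIF3C was at 412 to 468 CPM in all 6 exosome libraries, whereas EIF3CL was at 345 to 438 in 5 of them and at 110 in the Ang library of replicate 3. Without that library EIF3CL was higher by log2 1.88 (adjusted p = 5.62e-05, edgeR).

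The other higher eIF3 genes were EIF3G (log2 1.25), EIF3J (0.99), EIF3F (0.63), EIF3I (0.40) and EIF3H (0.39). EIF3H and EIF3I lost their calls with raw library totals (adjusted p = 0.186 and 0.24, edgeR). EIF3E was the 1 lower subunit gene, at 257 to 278 CPM in cells and 163 to 288 in exosomes (log2 -0.44, SE 0.142, adjusted p = 0.0279), and it lost its call in 9 of 20 alternatives. EIF3K, EIF3D, EIF3L and EIF3M had log2 0.20, -0.06, -0.07 and -0.25 and did not pass.

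**Figure D3:**
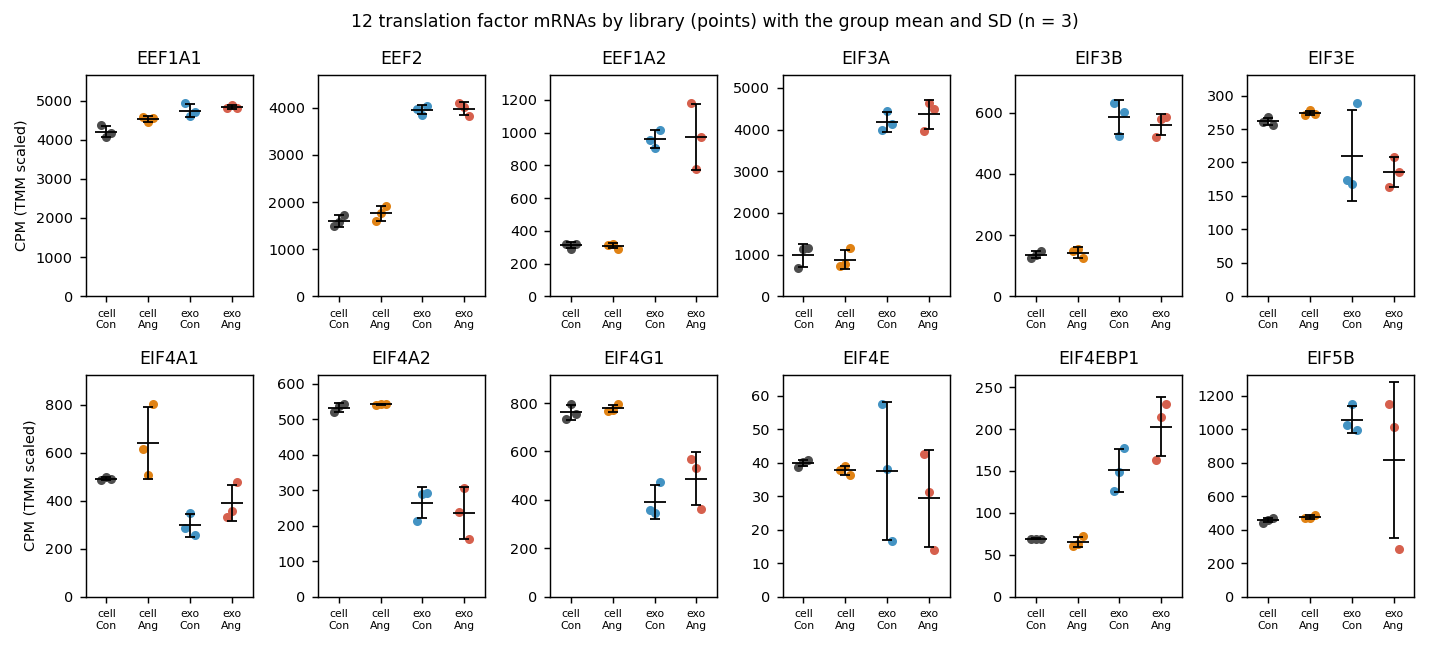
CPM after TMM scaling (y axis, from 0) of 12 translation factor genes in each of the 12 libraries (points), with the mean and SD of each group of 3. EIF3A, EIF3B, EEF2 and EEF1A2 lie higher in all exosome libraries than in all cell libraries, EIF4A2 and EIF4G1 lie lower, and EIF5B has 1 exosome library at 284 CPM against 997 to 1151 in the other 5.

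The eIF4 genes, which encode the cap-binding complex and its helicase, gave 4 lower, 1 higher and 4 that did not pass. EIF4A1 (ENSG00000161960, chromosome 17, 7572706 to 7579005), the main helicase, was at 485, 499 and 491 CPM in Con cells and 614, 505 and 804 in Ang cells, and at 285, 349 and 255 CPM in Con exosomes and 334, 358 and 476 in Ang exosomes. Every exosome library lay below every cell library (log2 -0.72, SE 0.135, adjusted p = 0.0012, edgeR), and 48.6% of its exon bases are shared with a read-through gene. Its paralog EIF4A2 (ENSG00000156976, chromosome 3, 186783205 to 186789900) was at 520, 537 and 542 CPM in Con cells and 541, 543 and 544 in Ang cells. In exosomes it was at 214, 289 and 291 CPM in Con and 239, 307 and 162 in Ang, 2.15-fold lower with no overlap (log2 -1.10, SE 0.14, adjusted p = 7.09e-05, edgeR).

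EIF4G1 (ENSG00000114867, chromosome 3, 184314495 to 184335358), the scaffold that bridges cap and ribosome, was at 733, 797 and 753 CPM in Con cells and 767, 772 and 795 in Ang cells, and at 357, 344 and 473 CPM in Con exosomes and 567, 531 and 362 in Ang exosomes. It was 1.76-fold lower in exosomes with no overlap (log2 -0.82, SE 0.118, adjusted p = 0.000196, edgeR). EIF4G2 (ENSG00000110321, chromosome 11, 10797050 to 10809110), a relative without the eIF4E-binding site, was at 550, 456 and 545 CPM in Con cells and 590, 568 and 544 in Ang cells. It was at 255, 207 and 201 CPM in Con exosomes and 198, 351 and 515 in Ang exosomes, so that 1 Ang exosome library reached the cell range (log2 -0.95, SE 0.181, adjusted p = 0.00135, edgeR). The third scaffold gene, EIF4G3, was higher over both labels (log2 0.91, SE 0.208, adjusted p = 0.00445, edgeR). That call rests on the Con groups (log2 1.60, adjusted p = 0.00263), since the Ang groups had log2 0.23 (adjusted p = 0.606) and overlapped. The 2 labels were not shown to differ for EIF4G3 (interaction adjusted p = 0.478, edgeR). EIF4E (ENSG00000151247, chromosome 4, 98871684 to 98930637), which binds the cap itself, was at 38.8, 40.1 and 40.7 CPM in Con cells and 37.7, 39.1 and 36.2 in Ang cells. In exosomes it was at 57.6, 38.2 and 16.5 CPM in Con and 42.7, 31.2 and 14 in Ang, from only 7 to 40 reads per library, and the libraries spread on both sides of the cell level (log2 -0.22, SE 0.29, adjusted p = 0.574, edgeR).

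All 3 tested eIF4E partners passed. EIF4EBP1 (ENSG00000187840, chromosome 8, 38030341 to 38060365), the inhibitor that mTORC1 phosphorylates, was at 69.2, 69.3 and 68.2 CPM in Con cells and 59.9, 63.3 and 72.3 in Ang cells. It was at 127, 148 and 177 CPM in Con exosomes and 163, 215 and 230 in Ang exosomes, 2.61-fold higher with no overlap (log2 1.38, SE 0.144, adjusted p = 1.36e-05, edgeR). EIF4EBP2, a second inhibitor of the family, was lower (log2 -0.49, adjusted p = 0.0145), and EIF4ENIF1, the nuclear transporter of eIF4E, was higher (log2 0.70, adjusted p = 0.0247), a call lost in 5 of 20 alternatives. EIF4ENIF1 had log2 1.36 in the Con groups (adjusted p = 0.00776) and 0.04 in the Ang groups (adjusted p = 0.949), and the 2 were not shown to differ (interaction adjusted p = 0.506, edgeR). EIF4A3, a helicase of the exon junction complex rather than of initiation, was higher by log2 0.94 (SE 0.113, adjusted p = 4.5e-05).

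Among the 5 tested carriers of initiator tRNA, EIF2S2 was higher and the other 4 did not pass. EIF2S2, the beta subunit gene of eIF2, was at 16.7 to 65.8 CPM in cells and 86.3 to 165 in exosomes (log2 1.64, SE 0.279, adjusted p = 0.000642). EIF2S1 (ENSG00000134001, chromosome 14, 67359997 to 67386516), the alpha subunit gene whose protein is phosphorylated under stress, was at 126, 126 and 133 CPM in Con cells and 138, 136 and 144 in Ang cells. It was at 102, 128 and 36 CPM in Con exosomes and 89.3, 103 and 78.1 in Ang exosomes, with 1 exosome library inside the cell range (log2 -0.58, SE 0.233, adjusted p = 0.0681, edgeR). EIF2S3, the gamma subunit gene, had log2 -0.35, and EIF2A and EIF2D, which encode alternative carriers, had -0.49 and -0.69. EIF2D varied from 0 to 63 reads over the 6 exosome libraries.

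The genes of eIF2B, which recharges eIF2 with GTP, gave 2 lower and 3 that did not pass. EIF2B3 (ENSG00000070785, chromosome 1, 44850522 to 44986722), the gamma subunit gene, had 306, 324 and 337 reads in Con cells and 313, 391 and 362 in Ang cells, against 20, 13 and 21 in Con exosomes and 0, 6 and 0 in Ang exosomes. Scaled to library size, Con exosomes (19.1 to 31.5 CPM) overlapped the cells (28.1 to 35.9) and Ang exosomes lay below them, and the difference over both labels was log2 -1.64 (SE 0.434, adjusted p = 0.0106, edgeR). In the Con groups it was -0.17 (SE 0.494, adjusted p = 0.844) and in the Ang groups -3.12 (SE 0.694, adjusted p = 0.00705), so the call rests on the Ang exosomes. The 2 labels were not shown to differ for EIF2B3 (interaction adjusted p = 0.478, edgeR). EIF2B4 (ENSG00000115211, chromosome 2, 27364352 to 27370486), the delta subunit gene, was at 49.5, 57.2 and 52 CPM in Con cells and 43.5, 42.8 and 49.1 in Ang cells. It was at 48.9, 0 and 16.5 CPM in Con exosomes and 13.6, 18.4 and 22 in Ang exosomes (log2 -1.30, SE 0.475, adjusted p = 0.0476, edgeR), a call that was lost in 14 of 20 alternatives. These 2 genes had at most 34 reads in any exosome library, so the depth limits what can be said of them.

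Of the 4 genes grouped under start codon recognition, EIF1, EIF1AX and EIF1B did not pass, and EIF1AD alone did. Nothing here shows that EIF1AD itself acts in start codon recognition. EIF1AD (ENSG00000175376, chromosome 11, 65996545 to 66002176), named for its eIF1A domain, was at 34.4, 34.2 and 34.6 CPM in Con cells and 33.4, 34.5 and 39.9 in Ang cells. It was at 31.7, 14.7 and 12 CPM in Con exosomes and 25.2, 16.5 and 10 in Ang exosomes, below all cell libraries (log2 -0.94, SE 0.276, adjusted p = 0.0182, edgeR). EIF1, the main gatekeeper of start codon choice, was at 257 to 300.3 CPM in cells and 242 to 370 in exosomes and did not pass (log2 0.16, SE 0.106).

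Of the 5 tested genes of subunit joining and eIF5A, 3 were higher. EIF5A (ENSG00000132507, chromosome 17, 7306999 to 7312463), whose hypusine-bearing protein relieves stalled ribosomes, was at 267, 245 and 279 CPM in Con cells and 311, 302 and 296 in Ang cells. It was at 436, 418 and 467 CPM in Con exosomes and 530, 430 and 450 in Ang exosomes, 1.61-fold higher with no overlap (log2 0.69, SE 0.0904, adjusted p = 9.45e-05, edgeR). EIF6 (ENSG00000242372, chromosome 20, 35278911 to 35284985), which keeps free large subunits from joining, was at 72.8, 74.3 and 78.9 CPM in Con cells and 78, 82.1 and 71.4 in Ang cells. It was at 121, 185 and 134 CPM in Con exosomes and 225, 107 and 92.1 in Ang exosomes, all above the cells (log2 0.92, SE 0.212, adjusted p = 0.00494, edgeR).

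EIF5B was higher by log2 0.997 (SE 0.248, adjusted p = 0.00838), although the Ang exosome library of replicate 3 had 142 reads against 552 to 782 in the others. Without that library its difference was log2 1.19 (adjusted p = 7.89e-07, edgeR). EIF5, the GTPase activator of eIF2, had 92, 29 and 108 reads in Con exosomes and 6, 78 and 121 in Ang exosomes. It did not pass (log2 -1.01, SE 0.474, adjusted p = 0.117), and it was the 1 member of 39 with a median of at least 40 reads in exosomes whose lowest library fell more than 4-fold below that median. Without that library, Ang replicate 1, EIF5 had log2 -0.74 (adjusted p = 0.0593), and without Ang replicate 3 it passed (log2 -1.40, adjusted p = 0.0367, edgeR). Among all genes of that depth 381 of 3454 (11%) had such a library in exosomes and 297 of 11570 (2.57%) in cells, where no member of 58 did. Without these genes, an alternative chosen after seeing the data, 32 members were called (23 higher and 9 lower of 57, against 38% of all genes).

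A pyrimidine tract as shown above was found in 15 of the 45 tested members with a RefSeq promoter entry (33.3%), against 1519 of 9718 genes (15.6%). Only the strand that reads like the mRNA was searched. Asking that the tract begin exactly at the start base gave 11 of 45 members (24.4%) against 536 genes (5.52%). EIF3A had no entry. The 15 members with the tract had a median log2 difference between exosomes and cells of -0.06, with 4 higher, 3 lower and 8 that did not pass. The 30 without it had a median of 0.299, with 11 higher, 5 lower and 14 that did not pass. Presence was read at the annotated RefSeq start of each gene and not from measured 5′ ends. By that start the elongation factor genes EEF1B2 and EEF1G, both higher in exosomes, fell among those without the tract. EEF2, EEF1A1 and EIF3F have the tract and were higher (EEF1A1 only with TMM scaling), EIF4A2 has it and was lower, and EIF4B has it and was near 0 (log2 0.02). At the annotated start EIF3B lacks it and was higher, and EIF4A1 and EIF4G1 lack it and were lower. Both directions therefore occurred with and without an annotated tract.

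Length and base composition were described the same way. Across the 58 members the log2 difference had a Spearman correlation of -0.137 with the length of the longest coding transcript and of 0.258 with its GC content, and across 11776 genes these were -0.229 and 0.29. These are correlations across genes that share the same libraries, and genes are not independent replicates. The 23 higher members had a median length of 2656 bases and 51.7% GC, and the 9 lower members had 1949 bases and 48.8% GC. How far length, GC content or the kits enter the differences was not tested.

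The regulators of these factors were counted from lists of pathway genes, to be read against the 17.6% of all genes that were higher and the 19.5% that were lower. Of 6 eIF2 alpha kinase and phosphatase genes, 1 was higher and 2 lower in exosomes: PPP1R15A, which brings the phosphatase to eIF2, had log2 0.75 (adjusted p = 7.57e-06), EIF2AK2, the kinase that senses double-stranded RNA, had -1.04 (adjusted p = 0.00018), and EIF2AK3, the kinase of the unfolded protein response, had -2.80 (adjusted p = 2.78e-06). The average of EIF2AK3 hides unlike values: the difference was -0.97 in the Con groups (adjusted p = 0.0163) and -4.64 in the Ang groups (adjusted p = 6.33e-06). The interaction passed (log2 -3.67, SE 0.505, adjusted p = 0.0293, edgeR), in a fit with a common spread for cells and exosomes. The biological coefficient of variation was 0.319 in that fit and 0.423 in exosomes alone. The SE of the interaction may thus be too small for exosomes, and a difference between the labels is not settled. In exosomes EIF2AK3 had 54 reads over the Con libraries and 3 over the Ang libraries (ratio per library size 13.7, 95% counting interval 4.45 to 68.6, counting error only), and the test of Ang against Con within exosomes did not pass (log2 -3.64, SE 0.846, adjusted p = 0.708, edgeR). Of 14 genes of mTORC1 and kinases of translation, 2 were higher and 3 lower, near the shares over all genes. Among them MTOR itself had log2 -0.52, RPS6KB1, the S6 kinase, -0.75, TSC1, a brake on mTORC1, -0.70 and MKNK1, a kinase of eIF4E, 0.94. Of 5 genes for poly(A)-binding proteins and their partners, 2 were higher and 1 lower: PAIP1 had log2 0.42 and PAIP2 0.46, PABPC4 had -0.48, and PABPC1, the main cytoplasmic form, had 0.11 and did not pass. PABPC4 had log2 0.04 in the Con groups (adjusted p = 0.881) and -1.002 in the Ang groups (adjusted p = 0.000391), with an interaction that did not pass (log2 -1.04, adjusted p = 0.134, edgeR).

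Of 18 helpers of scanning and recycling, 3 were higher and 2 lower, near or under the 17.6% and 19.5% of all genes. TPT1, a small growth-related protein made from a pyrimidine-tract mRNA, had log2 1.07, DENR, which acts in recycling and reinitiation, 0.70 and DPH1, an enzyme of the diphthamide residue of eEF2, 0.99, whereas DDX3X, a helicase of scanning, had -1.08. Of 9 mitochondrial translation factor genes none was higher and 4 were lower: TUFM, the mitochondrial counterpart of eEF1A, had log2 -0.45, MTIF3, an initiation factor, -1.28, GFM1, the elongation factor G, -1.002 and GFM2, a recycling factor, -0.91. The median of these 9 genes was 0.08 over both labels, with 5 positive values. By label the median was log2 -0.369 in the Con groups, with 3 positive values, and -0.477 in the Ang groups, with 2.

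Within cells, Ang libraries were compared with Con libraries to ask which translation factor mRNAs went with the label. None of 60 tested members passed (0% of all 13331 genes did, edgeR), and 5 had an unadjusted p under 0.05, against 6.12% of all genes. DESeq2 called 0 members as well, with 50 genes in all. The median was log2 0.03 and 43 of 60 values were positive, against a median of -0.0008 and 49.8% positive over all genes. EIF5A, with the CPM given above, lay higher in all 3 Ang libraries than in all Con libraries (log2 0.19, SE 0.06, adjusted p = 0.795, edgeR), as did EEF1A1 (log2 0.10, SE 0.0335). EIF4G3 (ENSG00000075151, chromosome 1, 20806292 to 21176888) had the largest positive value, at 91.5, 61.1 and 34.9 CPM in Con and 112, 155 and 142 in Ang (log2 1.12, SE 0.359, adjusted p = 0.795, edgeR). By CPM on raw library totals, all Ang libraries lay above all Con libraries in 11 members (7.43% of all genes) and below in 2 (6.53%).

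The summed CPM of all members was 17770, 18350 and 18450 in Con cells and 19390, 18630 and 20300 in Ang cells, with no overlap. The means were 18190 ± 363 and 19440 ± 834 (SD, n = 3 each), a difference of 1251 CPM that is given as a description. Much of this difference lay in a few abundant genes. From Con to Ang cells the mean of EEF1A1 went from 4207 to 4530 CPM and that of EEF1G from 749 to 1081. EEF2 went from 1599 to 1764 CPM and EIF4A1 from 492 to 641, whereas EIF3A went from 985 to 879. Of the tested members, 43 had a positive log2 and 17 a negative one. EEF1G ranged from 480 to 1354 CPM over cell libraries, and the sum does not show a shift of the whole set. As shares of raw gene reads, the members took 1.77% to 2.03% in cells and 2.44% to 2.57% in exosomes. In exosomes the summed CPM were 25780 ± 453 in Con and 25880 ± 731 in Ang (SD, n = 3 each), closer together than the spread of either group. The sign of that difference turned without Con replicate 2, Ang replicate 1 or Ang replicate 2 (-143.3, -23.33 and -198.3 CPM).

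In exosomes, Ang was compared with Con in the same way. None of 54 tested members passed (0.012% of 8327 genes did, edgeR), 3 had an unadjusted p under 0.05 (3.79% of all genes), and DESeq2 called 0 members and 13 genes. Signs were even, 27 positive and 27 negative, with a median of log2 -0.0025. EEF1D (ENSG00000104529, chromosome 8, 143579697 to 143599541) was at 967, 954 and 809 CPM in Con and 639, 805 and 633 in Ang, just without overlap (log2 -0.39, SE 0.143, adjusted p = 0.999, edgeR). EIF4H (ENSG00000106682, chromosome 7, 74174245 to 74197101), a helper of the helicase, was at 239, 288 and 270 CPM in Con and 157, 176 and 202 in Ang, also without overlap (log2 -0.57, SE 0.218, adjusted p = 0.999, edgeR). EIF2B3, with the reads given above, had 54 reads over the Con libraries and 6 over the Ang libraries, a ratio of 6.86 per library size (95% counting interval 2.95 to 19.5, counting error only). Its fitted log2 of -2.74 (SE 1.12, adjusted p = 0.999, edgeR) depends on the handling of the 2 libraries with 0 reads, which allow up to 5.41 and 5.6 CPM. By CPM on raw library totals, all Ang libraries lay below all Con libraries in 5 members (5.68% of all genes) and above in 1, EIF4A3 (5.12%).

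**Figure D4:**
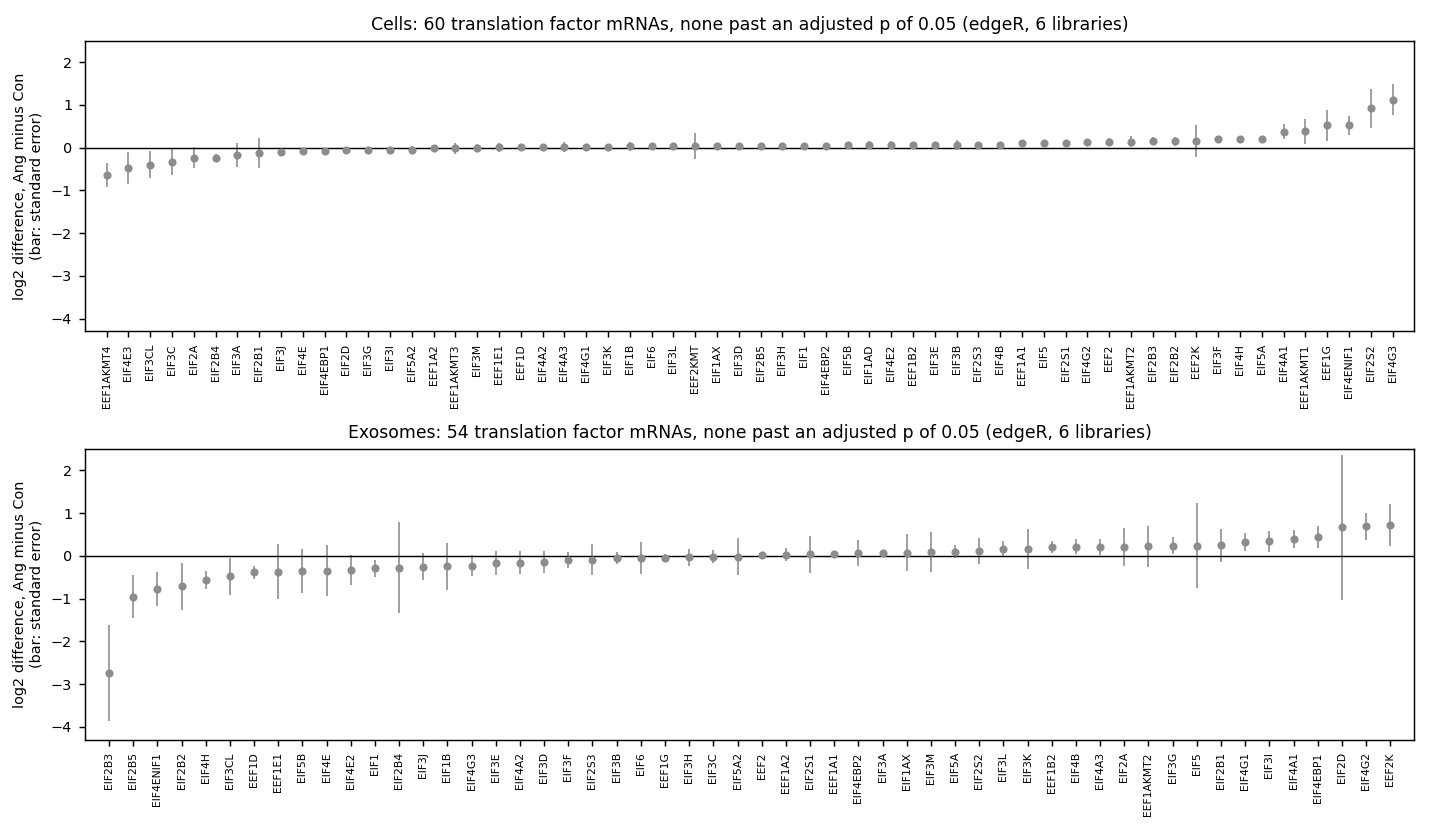
Log2 difference between Ang and Con (y axis, edgeR, bars are standard errors) for the translation factor genes tested in cells (upper panel, 60 genes) and in exosomes (lower panel, 54 genes), each in order of its value along the x axis. Most values lie near 0 in both panels, EIF4G3 is highest in cells at 1.12 and EIF2B3 lowest in exosomes at -2.74, and none passed the threshold.

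Whether the difference between Ang and Con differed between exosomes and cells was tested over all 12 libraries. None of 58 members passed (0.0254% of all genes did, edgeR), and 5 had an unadjusted p under 0.05, against 8.22% of all genes. The smallest p-values belonged to EIF4H (log2 -0.77, SE 0.218, adjusted p = 0.469), which was at 243, 206 and 248 CPM in Con cells and 262, 274 and 265 in Ang cells, then EIF2B3 (log2 -2.94, SE 0.876, adjusted p = 0.478) and EIF4G3 (log2 -1.36, SE 0.415, adjusted p = 0.478). EIF4G3 was at 213, 166 and 188 CPM in Con exosomes and 175, 160 and 146 in Ang exosomes, which overlapped, unlike its values in cells. DESeq2 called EIF4H (adjusted p = 0.00278) and EIF2B3 (adjusted p = 0.00151) and 368 genes in all. Without the Ang exosome library of replicate 2, the only one of its group with EIF2B3 reads, that group held no EIF2B3 reads. The call of EIF2B3 in that fit (log2 -10.5, adjusted p = 0.0381, edgeR) followed from the removal and is no separate evidence.

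Back-splice junctions gave a separate readout at these genes. In cells 28 of 5179 listed circular RNAs lay within member genes, from 10 host genes with 133 junction reads over the 6 libraries. EIF4G3 gave 10 circles with 52 reads, EIF3A 4 with 23 and EIF5B 5 with 19. In exosomes 5 of 939 lay within members, from EIF5B (2 circles, 16 reads), EIF4G3 (1 circle, 11 reads), EIF3A (1 circle, 4 reads) and EEF1D (1 circle, 2 reads). A pair of circles, 1 of EIF4G3 and 1 of EIF5B, was listed in both compartments. With so few reads no difference between groups could be measured, and whether reads of circles are part of the gene counts is not given in the sources used here.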

How the data were processed

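Gene and circular RNA read counts of 12 libraries were used as the authors deposited them: whole-number counts per Ensembl gene, and back-splice junction read counts per circle, 1 file per library. Per the labels' protocols, cell RNA (miRNeasy Micro) was made into libraries with the VAHTS Universal V6 kit and exosome RNA (exoRNeasy Maxi) with the SMARTer Stranded Total kit. GRCh38, HISAT2 and StringTie are named in the submitters' processing notes; no source used here gives versions, the counting step, its use of strand or the circle caller. Symbols matched 15365 of 15381 gene IDs in cells and 11963 of 11973 in exosomes. Positions and exon lengths came from GENCODE release 29 (GRCh38).

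Genes were tested with edgeR 4.0.16 (R 4.3.3): TMM scaling, filterByExpr (min.count 10, min.total.count 15), the robust quasi-likelihood test, and Benjamini-Hochberg adjustment over all genes tested with a threshold of 0.05. Exosomes were compared with cells, and the interaction tested, in 1 fit of 12 libraries over the genes listed in both; Ang was compared with Con in fits of 6 libraries. CPM of genes were computed on the TMM-scaled totals of the 12-library fit, and summed CPM of the members on those of the fits of 6 libraries. RPKM were computed on raw totals and the union of a gene's exons. Raw totals were also used for the marker sums, the 3-read limits, the search for libraries far below a gene's median, and the counts of genes without overlap between Ang and Con. Alternatives were DESeq2 1.42.0, other scalings and filters, a replicate block, each label alone and each library left out. The scripts were tested on simulated data. Members, lists, roles and tests were chosen with earlier results of these data known. Values in every library are given for 9 genes set by role, for the 5 highest and 5 lowest members past the threshold in exosomes against cells, and for the 3 with the smallest p in each other comparison; of each pathway list, up to 4 genes by smallest p are named.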

Additional observations from a re-analysis of the deposited data

How the results depend on the processing

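Of the 32 members that differed between exosomes and cells, 26 (19 higher, 7 lower) stayed called in all 18 alternatives holding both labels. EEF1A1, EIF2B4, EIF3E, EIF3H, EIF3I and EIF4ENIF1 did not, and the cause was not tested. The matching share over all called genes was not counted, so these counts do not set the members apart from other genes. DESeq2 called 39 members (28 higher, 11 lower) of 58, but it also called more of all genes, 48.4% (2652 higher and 3061 lower of 11811). With raw library totals 15 members were lower, against 3318 of 11811 genes. There EEF1A1 (-0.0811), EIF1 (-0.0561), EIF1AX (-0.015), EIF2B2 (-0.0921), EIF3K (-0.0094) and EIF4B (-0.192) changed sign. In fits of the Con libraries alone 2395 genes (20.5%) were called, and 4 members were lower, against 1074 of 11662 genes. There EIF3D (0.0444), EIF4B (-0.0368) and EIF4H (0.197) changed sign. In fits of the Ang libraries alone 2126 genes (18.3%) and 19 members were called. Of these members 13 were higher, against 1111 of 11603 genes, and EEF1AKMT1 (1.04), EIF1 (-0.00967) and EIF2B2 (-0.31) changed sign. The fits of a label alone hold fewer libraries. With 1 library left out 3539 to 4535 genes (34.5% to 38.1% of those tested) and 30 to 36 of the 56 or 58 members tested were called. Fewer genes could be tested without a cell library than without an exosome library. Of members that had not passed, EIF3D (-0.219 to 0.0473), EIF4B (-0.0827 to 0.0863), EEF1AKMT1 (-3.27 to 0.12), EEF1AKMT3 (-0.519 to 0.677), EIF1AX (-0.0302 to 0.321) and EIF2B2 (-0.0617 to 0.316) changed sign in 1 to 3 of these fits.

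For Ang against Con, no member was called in cells or in exosomes under any alternative run. Over all genes, DESeq2 called 50 in cells, 13 in exosomes and 368 (2 of them members) in the interaction, where edgeR called 0, 1 and 3. In exosomes no filter gave 3 genes. The 12-library fit, which has a common spread for cells and exosomes, gave 22 genes. Leaving out 1 library gave 0 to 3 genes in cells, 1 to 4 in exosomes and 1 to 17, with 0 to 1 members, in the interaction. The member total in exosomes, 95.33 CPM higher in Ang, ran from -198.3 to 501.7 with 1 library left out; it was -143.3 without Con replicate 2, -23.33 without Ang replicate 1 and -198.3 without Ang replicate 2. In cells it ran from 820 to 1655 CPM.

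Libraries with the same replicate number did not deviate together (correlations of -0.0438 to 0.0166), so the numbers do not show a pairing. With the replicate number as a block, exosomes against cells gave 3893 genes and 32 members (23 higher, 9 lower), and Ang against Con gave 0 genes in cells, 0 in exosomes and 1 in the interaction. The low exosome depth limits members of few reads most, such as EIF2B3, EIF2B4, EIF4E and EIF1AD.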
